A study of Mus musculus with 4 samples.

Results

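The miR-148 and miR-152 family of the mouse consists of 3 precursors, Mir148a, Mir148b and Mir152, and of their 6 mature products, a 3p and a 5p arm of each. The 6 mature miRNAs were picked by exact name from the miRNA values of C2C12 myotubes, a mouse skeletal muscle cell line of the 129/Rej strain background according to the labels. They are 6 of the 869 miRNAs detected in any sample, and each of them had reads in all 4 samples. Small RNA was taken after 6 days in differentiation medium with 2% horse serum, from 2 samples without guanidinoacetic acid (NC) and 2 samples with 20 mM guanidinoacetic acid (GAA, written Guanidineacetic acid in the labels), a precursor of creatine. All 4 samples share the cell line and the medium, and the labels name no transgene or deletion. Pairs of values below give replicate 1 of a group first and replicate 2 second. The labels do not say whether the replicates were separate cultures, so the p-values measure the spread between these samples only, which may be technical. The study compared the groups to see whether GAA alters the miRNAs of differentiating muscle cells.

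A miRNA precursor is a hairpin that is cut into a short duplex, from which usually one arm is loaded into Argonaute and the other is degraded. The loaded arm pairs with messenger RNAs mainly through its seed, the bases 2 to 8 from its 5′ end, so that miRNAs with one seed share many targets. The 3p arms are the products for which this family is known. They repress DNA methyltransferase 1 among other targets, and miR-148a is known to promote the differentiation of myoblasts through repression of the kinase ROCK1.

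The sequences below show which members share a seed, with the seed in capitals and the other bases in lower case. They were taken from RefSeq (GRCm38.p6), where all 6 members were found.
miR-148a-3p: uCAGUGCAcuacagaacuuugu
miR-148b-3p: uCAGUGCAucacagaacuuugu
miR-152-3p: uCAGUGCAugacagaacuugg
miR-148a-5p: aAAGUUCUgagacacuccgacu
miR-148b-5p: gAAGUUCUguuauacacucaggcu
miR-152-5p: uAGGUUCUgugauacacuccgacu

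The 3 mature 3p arms had one seed in common, and none of the other mature miRNAs among the 1679 RefSeq sequences searched carried it at bases 2 to 8. Of the 869 detected miRNAs, 717 were matched by name to a RefSeq sequence, so the seeds of the others were not checked. With positions counted from the 5′ end and without gaps, miR-148a-3p differed from miR-148b-3p by U9C and C10U, and miR-152-3p differed from miR-148b-3p by C10G and U20G over the 21 bases of the shorter miRNA. In each of these substitutions the base of miR-148b-3p stands first. Counted in this way, the 5p arms were less alike. miR-148a-5p and miR-148b-5p shared a seed but only 13 of 22 bases, whereas miR-152-5p differed from both within the seed, by A3G. miR-148a-5p has 22 bases and the other 5p arms have 24, so its counts without gaps understate the likeness. miR-148b-5p and miR-152-5p were identical at 19 of 24 bases.

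The precursors lie on different chromosomes of GRCm38. Mir148a occupies bases 51269812 to 51269910 of chromosome 6 (minus strand), where GENCODE M21 has no other gene over it. Mir148b occupies bases 103285125 to 103285221 of chromosome 15 (plus strand), within an intron of Copz1. Mir152 occupies bases 96850393 to 96850465 of chromosome 11 (plus strand), within an intron of Copz2. Copz1 and Copz2 encode the alternative zeta subunits of the COPI vesicle coat, and both are transcribed in the direction of the miRNA they hold.

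The mappable reads numbered 4732359 to 5657704 per sample and the reads of known miRNAs 1653803 to 3134241. The miRNA reads made up 33.6% and 43.6% of the mappable reads without GAA and 56.3% and 50.4% with GAA, so this fraction moved with the groups. Levels are given in RPM, the reads of a miRNA per 1000000 mappable reads, as deposited, and 3 reads correspond to 0.530 to 0.634 RPM. Over the 323 miRNAs that reached 10 reads in all samples, the median log2 fold change (GAA over NC) was 0.49 in RPM and 0.02 after division by the summed miRNA RPM of each sample. All 7 listed muscle miRNAs were detected, and they summed to 10480 to 13715 RPM in NC and 10533 to 11218 RPM in GAA. The largest part of this sum was miR-486a-5p, at 4849 and 6615 RPM in NC and 6700 and 5640 RPM in GAA. Of the 6 listed that reached 10 reads in all samples, 4 were lower with GAA in RPM without overlap and 0 higher. Markers of other cells were low in sum. The 6 blood cell miRNAs reached 11.0 to 14.8 RPM in NC and 15.9 to 21.0 RPM in GAA, the 2 endothelial ones 11.0 to 12.4 RPM and 11.8 to 18.0 RPM, and the 5 epithelial ones 1.48 to 1.83 RPM and 0.530 to 2.52 RPM. The higher blood cell sum with GAA came mostly from miR-142a-5p, at 6.09 and 7.18 RPM without and 16.9 and 13.4 RPM with GAA, whereas the red cell miRNAs miR-144-3p (25 and 9 against 1 and 4 reads) and miR-451a (10 and 4 against 4 and 1 reads) were lower with GAA in RPM without overlap. The 2 neuronal miRNAs summed to 28.0 to 41.4 RPM in NC and 43.1 to 59.8 RPM in GAA, nearly all from miR-9-5p, with miR-124-3p at 1 or 2 reads per sample. The liver miRNA miR-122-5p had 0 reads in either NC sample, and 17 and 2 reads with GAA. The part of other cells and of the miRNA fraction in the results below was not tested.

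miR-148b-3p was the most abundant member and miR-148a-3p followed. The NC samples held 509.7 and 812 RPM of miR-148b-3p, the GAA samples 1052 and 697 RPM. For miR-148a-3p the NC samples held 444 and 696 RPM, the GAA samples 759.5 and 542 RPM. Both were lowest in NC-1 and highest in GAA-1, and for both the groups overlapped, with GAA-2 below NC-2. By mean level over the samples they ranked 57 and 65 among the 869 detected miRNAs. In the same samples miR-133a-3p and miR-206-3p, which are largely confined to striated muscle, stood at 2877 and 452 RPM on average. By these means the 3p arms of miR-148a and miR-148b lay between them. These muscle miRNAs were chosen for the comparison after their values were seen. In NC-1 miR-148a-3p, at 444 RPM, was below miR-206-3p, at 494 RPM, and in the other samples it was above. Of the other listed muscle miRNAs, miR-133b-3p and miR-486a-5p were higher than both members on average (2161 and 5951 RPM). miR-1a-3p, miR-208b-3p and miR-499-5p were lower (31.7, 10.2 and 3.74 RPM).

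**Figure D1:**
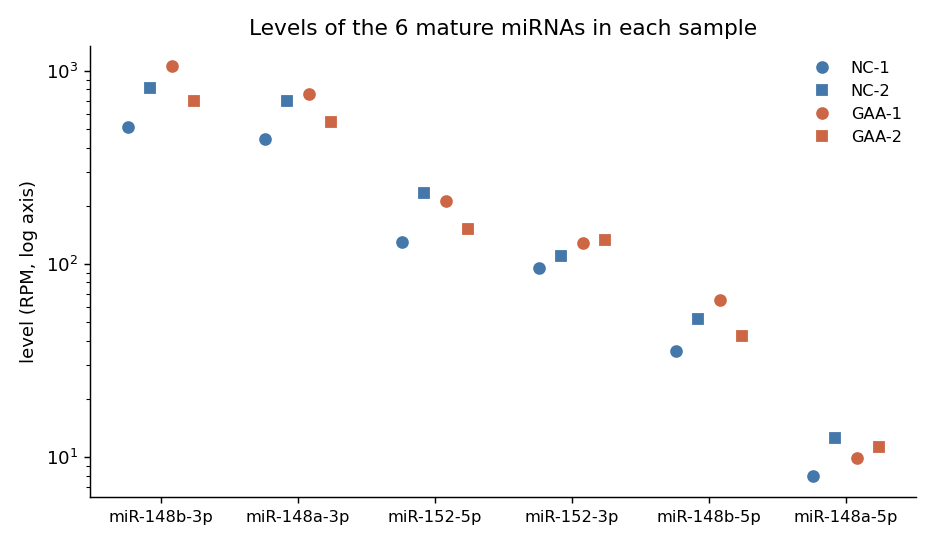
Level of each member (RPM, logarithmic vertical axis) in every sample, with NC in blue, GAA in orange, replicate 1 as circles and replicate 2 as squares. For 5 of the 6 miRNAs the points of the groups interleave, and for miR-152-3p both GAA points lie above both NC points.

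miR-152 gave fewer reads, and more of them from the other arm. miR-152-5p stood at 129 and 233 RPM without GAA and at 213 and 152 RPM with GAA. miR-152-3p stood at 95.6 and 109 RPM without and at 128 and 133 RPM with GAA, and it was the only member for which both GAA samples lay above both NC samples in RPM. The remaining 5p arms were the rarest members. miR-148b-5p ranged from 35.5 RPM in NC-1 to 64.9 RPM in GAA-1, and miR-148a-5p from 7.92 RPM in NC-1 to 12.5 RPM in NC-2, the latter from only 39 to 64 reads per sample.

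In the order of levels, the ranges of miR-148b-3p and miR-148a-3p over the samples overlapped, as did those of miR-152-5p and miR-152-3p. All other neighbours in the order were separated. Within every sample miR-148b-3p was nevertheless above miR-148a-3p, by a mean of 0.31 ± 0.13 (SD, n = 4) on the log2(RPM + 1) scale (exact paired permutation test, two-sided, p = 0.125, the smallest that 4 pairs allow). The ligation preferences of such libraries, which can differ between sequences, were not measured here, so an order between miRNAs is one of reads.

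The arms were used very differently by the 3 precursors. The 3p arm made up 98.2% ± 0.0063 (NC) and 98.3% ± 0.54 (GAA) of the reads of miR-148a, each as mean ± SD with n = 2. For miR-148b these shares were 93.7% ± 0.36 and 94.3% ± 0.083. For miR-152 they were only 37.3% ± 7.5 and 42.1% ± 6.5. More reads of this hairpin thus came from miR-152-5p, which has a seed that no other member shares. As ligation preferences were not measured, this too is an order of reads.

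The miR-152-5p reads exceeded the miR-152-3p reads in all 4 samples, with 635 against 471 and 1102 against 517 among the NC samples, and 1183 against 711 and 859 against 752 among the GAA samples. The 3p share of miR-152 was thus 42.6% (95% Wilson interval 39.7% to 45.5%) and 31.9% (29.7% to 34.2%) without GAA. With GAA it was 37.5% (35.4% to 39.7%) and 46.7% (44.3% to 49.1%). Each interval lay below 50%, but the samples of a group differed from each other by more than their intervals, which cover counting error only. Among the 85 precursors with at least 10 reads of both arms in every sample, 49 had a mean 3p share under 50% and 21 one between 25% and 75%, as miR-152 had, and 23 had one above 90%, as miR-148a and miR-148b had.

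**Figure D2:**
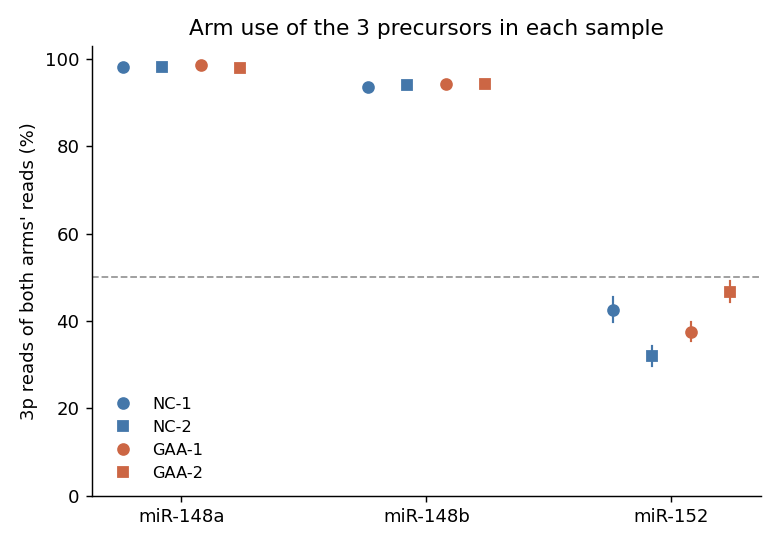
Reads of the 3p arm as a percentage of the reads of both arms for each precursor and sample, with 95% Wilson intervals as vertical lines and equal arms as the dashed line. miR-148a and miR-148b sit above 90% in every sample, whereas all 4 miR-152 points sit below 50%, between 31.9% and 46.7%.

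Arm use was also compared between GAA and NC. The 3p share of miR-148b was 93.5% and 94.0% without GAA, and 94.2% and 94.3% with it. Both GAA samples were thus above both NC samples, by 0.52 percentage points in the mean (exact permutation test, two-sided, p = 0.333, the smallest that 2 samples against 2 allow). GAA lay above NC in this way for 24.7% of the 85 precursors and below it for 9.41%, so 1 precursor of 3 is near this background. For miR-148a and miR-152 the groups overlapped, and the difference for miR-152, 4.85 percentage points, was smaller than the spread within either group. It was 10.2 percentage points when NC-1 was left out, 9.42 without GAA-1, 0.28 without GAA-2 and -0.48 without NC-2. For miR-148a the difference turned from 0.092 to -0.29 without GAA-1.

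The composition of the 3p reads was compared next. Of the 3 ratios between the 3p arms, 1 separated the groups, that of miR-148b-3p to miR-148a-3p. This is near the background, since the ratio did so for 37.3% of 67 pairs of miRNAs with one number, different letters and the same arm, such as miR-29a-3p and miR-29b-3p. As a share of the 3p reads of the family, in which the divisor of the RPM cancels, miR-148a-3p was lower in both GAA samples than in both NC samples, and miR-148b-3p was higher. The 3 shares sum to the whole, so a fall of one raises the others and these differences are not independent. miR-148a-3p made up 42.3% (95% Wilson interval 41.0% to 43.7%) and 43.0% (41.9% to 44.1%) of these reads without GAA, and 39.2% (38.3% to 40.1%) and 39.5% (38.4% to 40.6%) with GAA. The group means were 42.7% ± 0.49 (SD, n = 2) and 39.3% ± 0.24 (SD, n = 2), a difference of -3.34 percentage points that exceeded the spread within both groups. The exact permutation test (two-sided) gave p = 0.333, its smallest possible value. When single samples were left out, this difference ranged from -3.68 to -2.99 percentage points, and it was -2.18 with both arms of each precursor summed.

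miR-148b-3p made up 48.6% and 50.2% without GAA against 54.2% and 50.8% with GAA, a difference between the means of 3.13 percentage points (exact permutation test, two-sided, p = 0.333). It was 1.41 percentage points without GAA-1 and 4.85 without GAA-2. The lowest GAA sample was only just above the highest NC sample, and their intervals, 49.7% to 51.9% and 49.1% to 51.3%, overlapped. miR-152-3p made up the remaining 9.11% and 6.75% of the NC samples and 6.59% and 9.68% of the GAA samples, so that the groups overlapped.

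**Figure D3:**
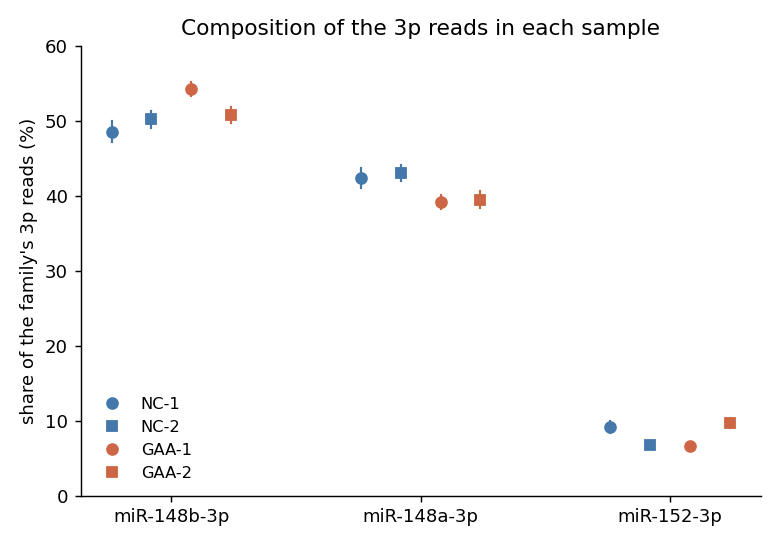
Share of each 3p arm in the 3p reads of the family in every sample, with 95% Wilson intervals as vertical lines, NC in blue and GAA in orange. The miR-148a-3p share is 42.3% and 43.0% in NC and 39.2% and 39.5% in GAA, and the miR-152-3p share is 6.59% to 9.68% without separation of the groups.

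The ratio of miR-148b-3p to miR-148a-3p reads was 1.15 and 1.17 without GAA and 1.38 and 1.29 with GAA, again without overlap of the groups. The ratios of miR-148a-3p and of miR-148b-3p to miR-152-3p overlapped between the groups. Near-identical copies can also share reads. The recovered reads were whole for all 6 members in all 4 samples, to within 0.05 reads, whereas for 49 of the 869 miRNAs they were not whole in at least 1 sample, so the counts of the members showed no sign of divided reads. Reads assigned to the wrong paralog as a whole would not be visible in this way.

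No member was called different between GAA and NC. With limma on log2(RPM + 1) of all 869 miRNAs and Benjamini-Hochberg adjustment, 0 miRNAs (0%) passed a false discovery rate of 0.01 together with a log2 fold change beyond 1 in either direction, although 152 had an unadjusted p under 0.05. With precision weights on the recovered reads (voom) the corresponding numbers were 0 and 156. The study applied the same thresholds with edgeR, a test on read counts, and did report differentially expressed miRNAs. That test was not run here. None of the 6 members had an unadjusted p under 0.05 in the limma fit on log2(RPM + 1), and their adjusted p ranged from 0.345 to 0.946. In bulk samples fewer cells that express a miRNA and less of it per cell cannot be told apart.

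The log2 fold change of miR-148a-3p was 0.21 (95% interval -0.67 to 1.09), from 570.1 ± 178 RPM (SD, n = 2) in NC to 651 ± 154 RPM (SD, n = 2) in GAA. For miR-148b-3p it was 0.41 (-0.54 to 1.37), from 661 ± 214 RPM to 875 ± 251 RPM (SD, n = 2 each). In both cases the difference between the means was smaller than the spread within at least 1 of the groups, and the interval includes a change of a doubling. For miR-152-3p the means were 102 ± 9.6 RPM and 130.3 ± 3.7 RPM (SD, n = 2 each), with a log2 fold change of 0.35 (-0.09 to 0.79, adjusted p = 0.345 with limma). This difference exceeded the spread of both groups. GAA lay above NC without overlap for 64.4% of the 323 miRNAs and below NC for 2.79%, so that 1 member of 6 above and 0 below is a smaller share than the background.

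The 5p arms were not called either. miR-152-5p had a log2 fold change of 0.05 (-0.97 to 1.08), miR-148a-5p one of 0.08 (-0.70 to 0.86) and miR-148b-5p one of 0.28 (-0.62 to 1.17). The fold change of the rare miR-148a-5p is understated to a small degree by the pseudocount of 1. The median over the 6 members was 0.24, and all 6 lay below the median of 0.49 over the 323 miRNAs.

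**Figure D4:**
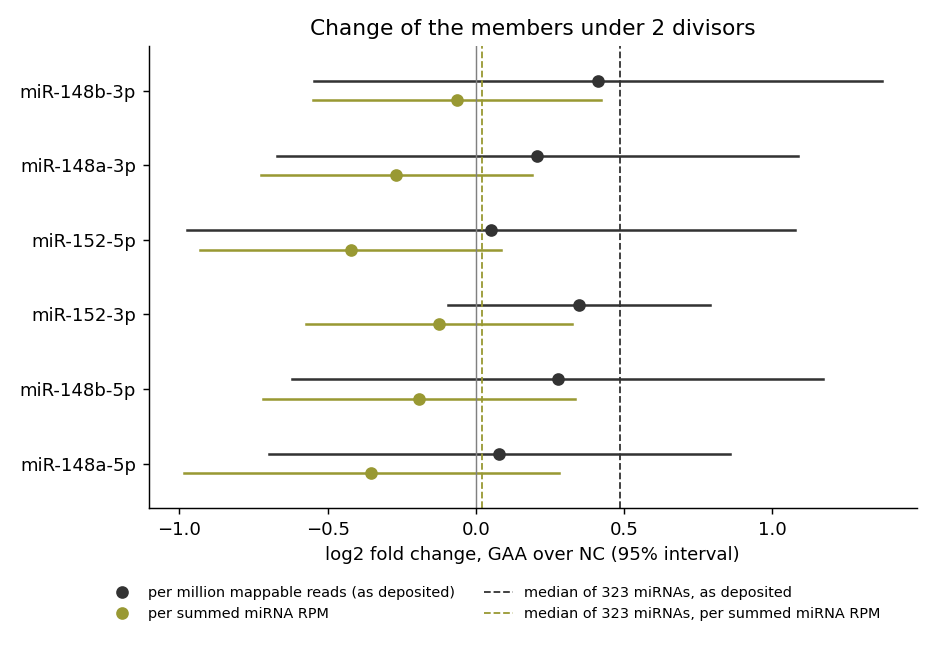
Log2 fold change of GAA over NC with its 95% interval for each member, on the deposited RPM (dark) and after division by the summed miRNA RPM of each sample (olive), with the medians of 323 miRNAs as dashed lines. The 6 dark points lie between 0.05 and 0.41, the 6 olive points between -0.42 and -0.06, and every interval includes 0.

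As a share of the miRNAs the differences had the opposite sign. The family summed to 1222 and 1915 RPM without GAA and to 2226 and 1578 RPM with GAA, with a ratio of the GAA mean to the NC mean of 1.21. As a share of the summed miRNA RPM it was 0.364% and 0.439% against 0.395% and 0.313%, with means of 0.401% ± 0.053 (SD, n = 2) and 0.354% ± 0.058 (SD, n = 2). The groups overlapped on both scales, and for the share the exact permutation test gave p = 0.667 (two-sided). All 6 log2 fold changes were positive in RPM and negative after division by the summed miRNA RPM, where their median was -0.23.

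Without GAA miR-148a-3p took 0.132% and 0.159% of the summed miRNA RPM, with GAA 0.135% and 0.108%. miR-148b-3p took 0.152% and 0.186% without and 0.187% and 0.138% with GAA, and both overlapped between the groups. Only 2 members were separated, both lower in GAA. miR-152-5p took 0.0384% and 0.0534% without GAA and 0.0377% and 0.0301% with GAA, so GAA-1 was only just below NC-1. miR-148a-5p took 0.00236% and 0.00286% against 0.00175% and 0.00224%, from the few reads given above. The exact permutation test gave p = 0.333 (two-sided) for both, the smallest possible value. On this scale GAA lay below NC without overlap for 19.8% and above NC for 22.9% of the 323 miRNAs. After division by the summed miRNA RPM, limma gave adjusted p of 0.717 to 0.917 for the members.

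Other miRNAs of myogenesis are given beside the family, from lists written with earlier results of these data known. Of the 7 muscle miRNAs (miR-1a, miR-133a, miR-133b, miR-206, miR-208b, miR-486a and miR-499) 0 were called. Of the 6 that reached 10 reads in all samples, 4 were lower in GAA without overlap in RPM and 0 higher, beside 2.79% of the 323 miRNAs lower and 64.4% higher. As a share of miRNA all 6 were lower, beside 19.8% of the 323. miR-208b-3p, encoded in a myosin heavy chain gene, missed this minimum, as its reads numbered 92 and 84 without GAA but 17 and 8 with it. The list median was -0.49 in RPM and -0.94 after division by the summed miRNA RPM. The study took up miR-133a-3p and miR-1a-3p from these samples, so the list is not independent evidence of a direction.

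Of the 12 listed miRNAs that are known to favour myogenic differentiation, as miR-148a-3p is, 0 were called. In 8 of them GAA lay above NC in RPM without overlap and in 0 below, a share near the 64.4% of the 323 miRNAs, and the list median was 0.50 beside the 0.49 of the 323 miRNAs. miR-29a-3p had the highest log2 fold change of this list, 0.71, from 2478 and 2293 RPM in NC to 4146 and 3648 RPM in GAA, and miR-181a-5p the lowest, -0.18. As a share of miRNA, 1 of the 12 was higher and 4 were lower without overlap, beside 22.9% and 19.8% of the 323. Of the 5 listed miRNAs that hold differentiation back or favour proliferation, 0 were called, and 4 were above NC in RPM without overlap and 0 below, beside the same 64.4%. Their median was 0.68 in RPM and 0.20 after division by the summed miRNA RPM, where 2 were higher without overlap (22.9% of the 323), and miR-222-3p was highest at 1.22 in RPM. The members of the family thus had a lower median in RPM, 0.24, than these lists of 12 and 5 miRNAs and a higher one than the muscle miRNAs, and these differences were not tested.

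The pattern over the 4 samples was compared by the Euclidean distance between log2(RPM + 1) values centred on the mean of each miRNA. Among 317 miRNAs outside the family, miR-196b-5p (distance 0.049), miR-30a-5p (0.080) and miR-196a-5p (0.092) were nearest to miR-148a-3p. miR-196b-5p stood at 158 and 248 RPM in NC and 275 and 187 RPM in GAA. Within the family miR-148b-5p (0.14), miR-152-5p (0.21) and miR-148b-3p (0.22) followed at larger distances, and miR-152-3p was farthest (0.52). Nearest to miR-152-3p were miR-328-3p (0.060), miR-218-5p (0.099) and miR-101b-3p (0.13), while its own opposite arm was at 0.67, the largest distance from miR-152-3p within the family.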

How the data were processed

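Small RNA libraries of 2 NC and 2 GAA samples of C2C12 myotubes were analysed. The authors filtered the reads, mapped them to GRCm38 with miRDeep2, matched them to miRBase and divided the reads of each miRNA by the mappable reads. The deposited levels were read here as log2(RPM + 1). A miRNA without reads had no entry and was set to 0. The headers instead write log(rpm)+1, without a base and with the 1 outside the logarithm. The base and the place of the 1 were inferred from the steps in the values. Read in this way, the RPM were whole multiples of 1 step per sample for 95.4% to 96.0% of the miRNAs (within 0.05 reads). The reads were recovered from this step. Groups and replicate numbers came from the sample titles, and no batch or date is given in the sources used here. The chi-square per degree of freedom between replicates was 135.0 in NC and 116.9 in GAA, so no sample was a duplicate within sampling noise.

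The comparison of GAA with NC used limma 3.58.1 under R 4.3.3 (linear fits with eBayes and a trend, condition as the only term, pseudocount of 1, no filter on low values). The code was run on simulated reads with less spread between replicates and larger changes than the members had. That run does not measure how well the fit finds changes in these data. Single values were compared by exact permutation tests in scipy 1.17.1, and figures were drawn with matplotlib 3.10.9. Intervals on shares are 95% Wilson intervals and cover counting error only. A count test was not run on values on a log scale. The alternatives were other divisors, a pseudocount of 0.1, filters, no trend, voom weights, the replicate number as a block and each sample left out. The named miRNAs were the members, the extremes of the lists, the 3 nearest patterns to miR-148a-3p and to miR-152-3p and any miRNA with the same seed. The members and lists were chosen with earlier results of these data known.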

Additional observations from a re-analysis of the deposited data

How the results depend on the processing

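The count of called miRNAs stayed at 0 with a pseudocount of 0.1, with either filter, without the trend, with voom weights, at a false discovery rate of 0.05, with the replicate block (0 miRNAs) and with each sample left out, and no setting called a member. Samples with the same number did not deviate together in RPM (r = -0.15 over 323 miRNAs, which are not independent). With 2 samples per group this is 1 correlation, which also holds the miRNA fraction of each sample. It cannot decide whether the numbers pair the samples. The count was 1 after division by the summed miRNA RPM, 1 without the 5 most abundant miRNAs in the divisor, 1 with median-of-ratios factors and 6 with the replicate block and the summed miRNA RPM together. All members had positive log2 fold changes with the mappable reads as divisor and negative ones with the other divisors. The exception was miR-148b-3p, at 0.02 without the 5 most abundant miRNAs in the divisor. For some members the sign also differed with the samples used. Division by the summed miRNA RPM, with or without the replicate block, gave log2 fold changes of -0.27 for miR-148a-3p, -0.35 for miR-148a-5p, -0.064 for miR-148b-3p, -0.19 for miR-148b-5p, -0.13 for miR-152-3p and -0.42 for miR-152-5p. Without the 5 most abundant miRNAs in the divisor they were -0.18, -0.27, 0.02, -0.11, -0.040 and -0.34 in the same order, and with median-of-ratios factors -0.32, -0.40, -0.12, -0.24, -0.18 and -0.48. With each sample left out in turn they ranged from -0.12 to 0.53, -0.22 to 0.38, 0.08 to 0.75, -0.03 to 0.58, 0.25 to 0.44 and -0.37 to 0.48. The sign turned without NC-1 or GAA-1 for miR-148a-3p (-0.12, -0.036) and miR-152-5p (-0.37, -0.19), without NC-1 or GAA-2 for miR-148a-5p (-0.22, -0.010) and without GAA-1 for miR-148b-5p (-0.031). The differences in share of the summed miRNA RPM (GAA minus NC, percentage points) then ranged from -0.038 to -0.011, -0.00086 to -0.00036, -0.031 to 0.018, -0.0029 to 0.00027, -0.0041 to -0.00038 and -0.019 to -0.0045, those in 3p share from -0.29 to 0.47 for miR-148a, 0.27 to 0.77 for miR-148b and -0.48 to 10.2 for miR-152, and those in paralog share from 1.41 to 4.85 for miR-148b-3p and -1.35 to 1.75 for miR-152-3p (-0.98 without NC-2, -1.35 without GAA-2). The share difference of miR-148b-3p was 0.0056 without the 5 most abundant miRNAs in the denominator, and with both arms summed the paralog share difference was -1.46 for miR-152, -2.18 for miR-148a and 3.63 for miR-148b. Non-overlap above and below NC fell and rose to 74 and 64 miRNAs with the summed miRNA RPM. The list medians were then -0.94 for muscle, 0.021 for differentiation and 0.20 for proliferation. Depth limits miR-148a-5p most, at 39 to 64 reads, and 2 samples per group limit all tests.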

Other observations

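The letters of the 3p seed, CAGUGCA, also open other mature miRNAs, at bases 1 to 7 and so 1 base off from the position in the family. This search was made after the values were seen. It found 7 mature miRNAs in RefSeq, of which 3 were detected. Detected miRNAs without a matched RefSeq sequence could not be searched. miR-130a-3p stood at 1096 and 1092 RPM without GAA and at 1586 and 1272 RPM with it. For miR-301a-3p these levels were 646 and 840.2 RPM against 1373 and 822 RPM, and for miR-130b-3p 29.2 and 27.3 RPM against 56.9 and 45.4 RPM. The groups did not overlap for miR-130a-3p and miR-130b-3p, with GAA above NC, and they overlapped for miR-301a-3p, as for miR-148a-3p and miR-148b-3p. In RPM, GAA lay above NC without overlap for 64.4% of the 323 miRNAs, so such a separation is common on this scale. miR-130a-3p and miR-301a-3p were thus of the same order of abundance as the miR-148 3p arms.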
